A study of Homo sapiens with 21 samples.

Results

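The replication-dependent histone genes are the clustered genes that supply linker histone H1 and the core histones H2A, H2B, H3 and H4 during DNA synthesis. They were taken from the deposited read count table as every protein-coding gene whose symbol places it in the H1-1 to H1-6, H2AC, H2BC, H3C or H4C series. That gave 66 of the 61544 genes listed: 6 H1, 16 H2A, 17 H2B, 13 H3 and 14 H4 genes. Poly(A)-selected RNA had been sequenced from BJ cells, a human skin fibroblast line with a limited number of divisions (the labels' molecule entry reads genomic DNA, against the RNA protocol they give). In all, 21 libraries formed 7 groups of 3. For replicative ageing, libraries came from P3, P11, P24, P30 and P33 (P marks the passage), with no added agent named. Drug-induced senescence was sampled apart, as P11 cells given DOX at 50 ng/ml and P11 cells given DMSO. DOX is doxorubicin, a topoisomerase poison known to break DNA, and DMSO is its solvent control. The labels do not say how long DOX was present or whether the 3 libraries of a group came from separate cultures, so p-values measure the spread between these libraries only, which may be technical.

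H2A, H2B, H3 and H4 form the protein core of the nucleosome, and H1 binds the linker DNA between nucleosomes. Replication-dependent histone mRNAs are made in bulk in S phase. They end in a conserved stem-loop bound by SLBP, the stem-loop binding protein, after a cut that the U7 small nuclear ribonucleoprotein directs, and so lack the poly(A) tail of other mRNAs. Some of these genes also hold polyadenylation signals downstream of the stem-loop, and tailed transcripts read through to them have been described in differentiated and non-dividing cells. Selection of poly(A)+ RNA, as done here, favours tailed transcripts. The tailed share of the reads and total histone mRNA were not measured.

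The stem-loops of genes described in the results are shown because they mark where the untailed mRNA ends. They were read from GENCODE release 29 transcripts, 5′ to 3′, with the 2 strands of the stem in capitals and the loop in lower case.
H2BC21: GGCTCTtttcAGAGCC
H2AC6: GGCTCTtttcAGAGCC
H3C10: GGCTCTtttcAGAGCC
H2BC4: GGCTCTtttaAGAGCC
H2BC5: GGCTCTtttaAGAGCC
H3C6: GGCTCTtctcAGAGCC
H4C8: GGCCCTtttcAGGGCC
H4C14: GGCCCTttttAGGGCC
Of the 66 genes, 62 matched that annotation, and in 26 at least 1 annotated transcript contained the 16-base stem-loop. In 20 of these 26, a transcript ran on for more than 100 bases past it. The count table gives some of these genes a shorter span, so reads past that span were not counted on them. Examples are H2BC8, at 489 bases against a 1534-base transcript, and H2AC11, at 493 against 2250. The longest transcripts carried 1729 bases after the stem-loop in H2BC21, 1128 in H2AC6, 769 in H3C10, 1862 in H3C6, 1655 in H4C8 and 1167 in H4C14. The run past the loop was 116 bases in H2BC4 and 39 in H2BC5. Annotated transcripts of H1-2 and H2BC12 held no stem-loop, which says only that it is not within those models.

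The 250 bases upstream of the RefSeq start (build GRCh38.p14) are shown for 3 genes that changed by different amounts in ageing and with DOX. Capitals mark TATAAA (bound by the general factor TBP), CCAAT and ATTTGCAT (the octamer read by POU2F1), each searched on both strands. H2BC21 lies at chr1:149886683-149886932 on the minus strand, H2BC5 at chr6:26157872-26158121 on the plus strand, and H1-2 at chr6:26056471-26056720 on the minus strand.
H2BC21: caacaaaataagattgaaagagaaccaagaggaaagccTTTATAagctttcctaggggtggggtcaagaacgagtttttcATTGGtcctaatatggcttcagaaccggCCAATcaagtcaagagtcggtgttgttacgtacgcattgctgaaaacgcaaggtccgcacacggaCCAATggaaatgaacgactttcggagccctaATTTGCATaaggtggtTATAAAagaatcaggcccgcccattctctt
H2BC5: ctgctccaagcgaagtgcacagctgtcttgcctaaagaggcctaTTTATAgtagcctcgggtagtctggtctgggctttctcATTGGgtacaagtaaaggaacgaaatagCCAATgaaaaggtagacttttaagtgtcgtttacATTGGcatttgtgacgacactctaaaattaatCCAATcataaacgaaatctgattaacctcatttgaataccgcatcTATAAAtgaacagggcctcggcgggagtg
H1-2: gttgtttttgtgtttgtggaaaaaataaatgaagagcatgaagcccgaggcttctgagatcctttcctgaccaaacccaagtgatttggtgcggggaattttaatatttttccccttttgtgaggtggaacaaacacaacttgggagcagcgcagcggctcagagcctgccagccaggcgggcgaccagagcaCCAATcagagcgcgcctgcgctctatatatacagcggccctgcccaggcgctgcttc
Among the 61 genes matched in RefSeq, TATAAA was present in 42 (68.9%), against 10.7% of all 35116 promoter windows of that length. CCAAT was present in 52 (85.2%, against 32.0% of all windows) and the octamer in 25 (41.0%, against 1.63%). The octamer was found in 14 of 17 H2B windows and 11 of 15 H2A windows, and in none of the H1, H3 or H4 windows. CCAAT was in every H1, H2A, H2B and H3 window but in 3 of 12 H4 windows. Where an H2A and an H2B gene start close together on opposite strands, their windows hold much the same bases. A match there can be counted for both genes, so the windows are not independent. These matches describe letters and are not tested sites.

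Library totals ran from 12.946 to 27.194 M counted reads. All 8 fibroblast markers checked, among them COL1A1, VIM and PDGFRB, were at 196 to 15200 CPM (read counts relative to library size, per M reads, with sizes scaled by trimmed mean of M-values, TMM) in every library. Markers of keratinocytes, endothelium, leukocytes and melanocytes were at or below 1.98 CPM, with KRT5 at 0 throughout. Of all genes, 16821 passed a filter on low counts (about 0.526 CPM in at least 3 libraries) and were tested in 1 fit of all 21 libraries with edgeR's quasi-likelihood test, with Benjamini-Hochberg adjustment over all of them. "Higher", "lower", "rose" and "fell" below refer to an adjusted p under 0.05 in that test. Of genes lying wholly inside another gene of the same strand, none had reads in the passage libraries, while some did in the DOX and DMSO libraries, so levels are compared only within each of the 2 sets.

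The 66 genes sit in 4 clusters, set apart here by gaps of over 500000 bases (hg38, per the submitters' processing notes). Cluster 1 on chromosome 1 (149782689 to 149887965) holds 11 genes. The other 3 are on chromosome 6: cluster 2 (25726063 to 26285638) with 34 genes, cluster 3 (27125897 to 27147562) with 5 and cluster 4 (27807479 to 27893891) with 16.

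Reads were spread very unevenly. The 66 genes drew 80109 reads over the 21 libraries, of which the top 5 genes took 74.94% and the top 10 took 92.24%. H2AC6, an H2A gene of cluster 2, had the highest count at 22730. No read was found on 8 genes (H3C14, H2AC1, H2BC1, H1-1, H4C1, H3C4, H4C7 and H2AC17), and 43 genes in all, with fewer than 100 reads each, were not tested. Of the 8, H3C14 and H3C4 share every 100-base stretch of their annotated transcripts with other genes, and H2AC17 shares 84.0% of them. A count of 0 on these genes need not mean that no transcript was present. The 23 tested genes were 1 H1, 7 H2A, 10 H2B, 2 H3 and 3 H4 genes.

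Genes annotated beyond the usual short histone unit held most of the reads. The table gives each gene's length as its whole span, introns included, so counts are shares of reads and not levels per length. The 14 genes spanning over 1000 bases held 66.19% of the reads, with a median of 1095 per gene (range 37 to 22730). The 52 shorter genes held 33.81%, with a median of 26 (range 0 to 13211). Of the long-span genes 13 of 14 were tested, against 10 of 52 short ones. A longer annotated span also offers more sequence to count. The short-span exceptions were H2BC12, with the 13211 reads, and H1-2, which spans 731 bases.

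**Figure D1:**
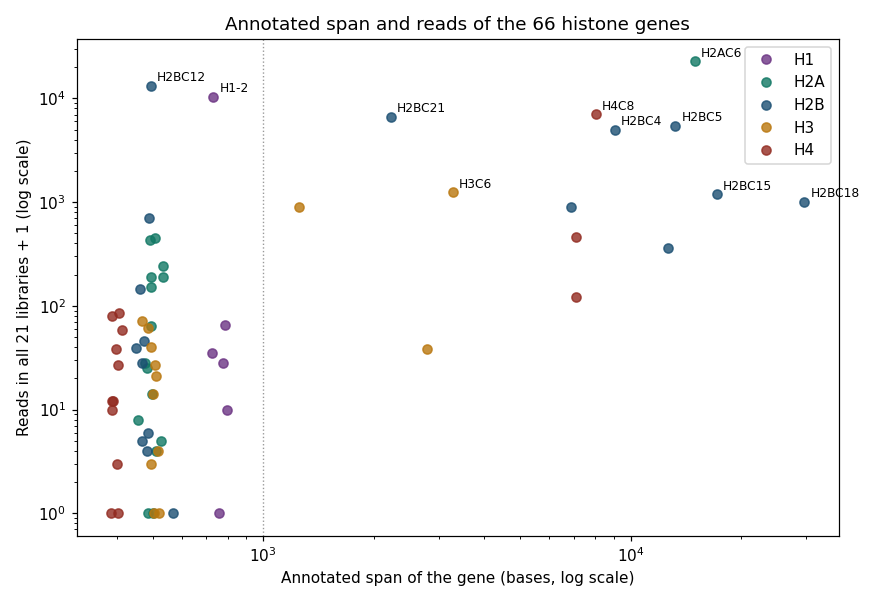
Reads on each of the 66 genes summed over 21 libraries, plus 1 (vertical log axis), against the span given in the count table in bases (horizontal log axis), coloured by histone class; the dotted line is at 1000 bases. Most genes left of the line stay under 100 reads, while 13 of the 14 right of it are above.

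At P33 the histone transcripts counted after poly(A) selection were higher than at P3 in nearly every gene that could be tested. Of 23 genes 22 were higher and none was lower, where 34.5% of all genes tested were higher and 33.3% lower. By at least 2-fold, 17 were higher (14.7% of all genes), and the median log2 fold change was 1.60, against 0.00 over all genes. In 19 of the 23 every P33 library lay above every P3 library, as it did for 36.0% of all genes. None was lower at an unadjusted p under 0.05, and DESeq2 gave 21 higher and none lower. CPM values are relative to the library, so fewer cells making a transcript and less of it per cell cannot be told apart.

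H4C15, H2BC9 and H2AC13 passed the filter only through their P33 libraries, so at P33 they had to be high and their tests there carry no weight. Without these 3, 19 of 20 genes were higher and none lower. Of the 14 genes above the filter level in all 3 P3 libraries, 13 were higher and none lower. A further count is given by the 16 genes that pass on DOX and DMSO libraries alone, of which 15 were higher at P33 and none lower.

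**Figure D2:**
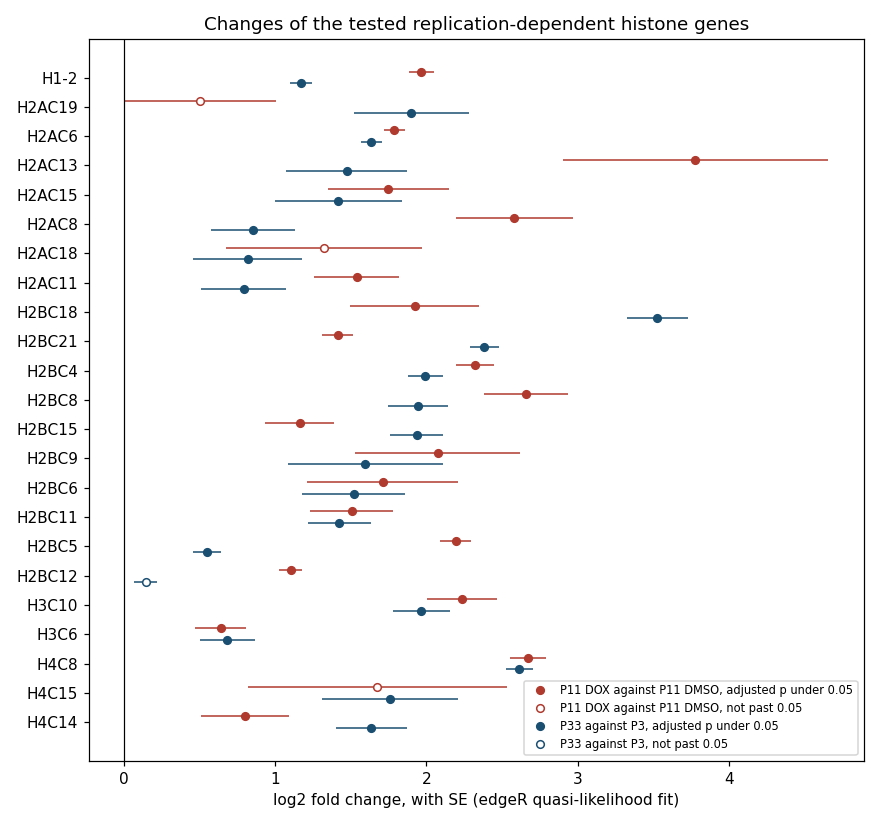
Log2 fold changes (horizontal axis, bars are the standard error) of the 23 tested genes for DOX against DMSO (red) and P33 against P3 (blue); open symbols did not pass an adjusted p of 0.05. All P33 values lie right of 0, with H2BC18 at 3.53 farthest right and H2BC12 at 0.15 nearest to 0.

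H1-2 was the only linker histone gene with enough reads to test (chr6:26055740-26056470, minus strand). It had 37.4, 41.7 and 37.3 CPM at P33, against 18.1, 17.0 and 16.4 CPM at P3. The groups did not overlap, and the difference was 2.25-fold (log2 1.17, SE 0.0752, adjusted p = 2.91e-17). H1-4, another somatic H1, had 3, 6 and 10 reads at P33, against 1, 5 and 3 at P3. H1-6, a testis-specific H1, had 8, 9 and 4 reads at P33, against 0, 0 and 1 at P3. Summed, 21 reads against 1 gave H1-6 a depth-corrected ratio of 23.0 (95% exact interval 3.7 to 951, counting error only).

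Among H2A genes 7 of 7 tested were higher at P33 (34.5% of all genes tested), or 6 of 6 without H2AC13, which entered through P33. H2AC6 (chr6:26124145-26139116, plus strand, span 14972 bases) stood at 74.6, 80.1 and 77.9 CPM at P33, against 25.0, 25.3 and 24.4 CPM at P3. This was 3.11-fold (log2 1.64, SE 0.0698, adjusted p = 5.3e-23), with library values close within each group. H2AC8, a short gene of cluster 2, had 2.11, 1.60 and 1.69 CPM at P33, against 1.09, 1.19 and 0.638 CPM at P3 (log2 0.86, SE 0.277, adjusted p = 6.18e-03). H2AC11, in cluster 3, had 1.26, 1.55 and 0.868 CPM at P33, against 0.936, 0.539 and 0.638 CPM at P3. Its groups overlapped (log2 0.79, SE 0.28, adjusted p = 0.0118), and the call was lost without P3 replicate 2 (log2 0.61, adjusted p = 0.0797) or P33 replicate 2 (log2 0.62, adjusted p = 0.0868). H2AC18 (log2 0.82) and H2AC19 (log2 1.90, SE 0.38, adjusted p = 3e-05) are near-identical copies, so their split is uncertain. H2AC19 had 23, 20 and 53 reads at P33, against 9, 11 and 8 at P3, so P33 replicate 3 weighs heavily in its value. The H2AC18 call (adjusted p = 0.0427) was lost when a single library was left out: P3 replicate 2 (adjusted p = 0.193), P3 replicate 3 (0.0786), P33 replicate 1 (0.196) or P33 replicate 3 (0.0836).

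The H2B genes held both the strongest and the weakest response. H2BC18 (chr1:149782689-149812373, minus strand) had 7.67, 7.86 and 9.21 CPM at P33, against 0.897, 0.501 and 0.736 CPM at P3. That was 11.5-fold (log2 3.53, SE 0.203, adjusted p = 8.95e-19), the largest change of the 23. Its 29685-base span overlaps another gene on its own strand and FCGR1A on the opposite strand, so reads may be shared with them.

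H2BC21, in the same cluster (chr1:149884459-149886682, minus strand), stood at 33.2, 30.7 and 33.2 CPM at P33, against 6.08, 6.24 and 6.28 CPM at P3 (5.22-fold, log2 2.38, SE 0.0956, adjusted p = 7e-24). H2BC4 (chr6:26114873-26123926, minus strand) had 25.2, 22.2 and 19.7 CPM at P33, against 6.43, 4.62 and 5.84 CPM at P3 (3.98-fold, log2 1.99, SE 0.115, adjusted p = 1.59e-18). In both genes the lowest P33 library was more than 3 times the highest P3 library. H2BC8 rose 3.86-fold, with 3.50, 3.25 and 3.42 CPM at P33 and 0.936, 0.848 and 0.834 CPM at P3. H2BC15 rose 3.83-fold, with 5.81, 6.83 and 5.88 CPM at P33 and 1.99, 1.58 and 1.18 CPM at P3.

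H2BC5 and H2BC12 moved far less. H2BC5 (chr6:26158122-26171349, plus strand) had 15.3, 13.8 and 14.8 CPM at P33, against 9.12 to 10.7 CPM at P3 (1.47-fold, log2 0.55, SE 0.091, adjusted p = 1.13e-06). It overlaps the pseudogene LARP1P1 on its own strand and, like H2BC6, another gene on the opposite strand. H2BC12 (chr6:27146361-27146855, minus strand) had 32.4, 30.6 and 31.7 CPM at P33, against 27.8, 32.1 and 25.6 CPM at P3. These groups overlapped, and the difference was not past the threshold (log2 0.15, SE 0.0756, adjusted p = 0.0874). It did pass without P3 replicate 2 (log2 0.23, adjusted p = 0.0113). It also passed under a stricter filter of 10 CPM in 3 libraries (log2 0.27, adjusted p = 0.00245). H2BC12 shares 28.4% of its 100-base words with other listed genes, among them H2BS1, so part of its count is uncertain. H2BC9, which entered through P33, averaged 0.518 ± 0.0124 CPM at P33 and 0.168 ± 0.118 CPM at P3 (SD, n = 3 each).

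Both tested H3 genes were higher at P33 (34.5% of all genes tested). H3C10 (chr6:27810051-27811300, plus strand) had 4.47, 4.05 and 3.91 CPM at P33, against 1.05, 1.00 and 1.13 CPM at P3 (3.91-fold, log2 1.97, SE 0.188, adjusted p = 3.85e-12). H3C6 (chr6:26224199-26227473, plus strand) had 2.91, 3.06 and 3.95 CPM at P33, against 1.79, 2.16 and 2.21 CPM at P3 (1.61-fold, log2 0.69, SE 0.18, adjusted p = 9.14e-04). The groups were apart in both genes. H3C13, not tested, had 12, 6 and 9 reads at P33, against 2, 3 and 3 reads at P3, and shares 51.3% of its 100-base words with other listed genes.

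H4C8 and H4C14, the H4 genes that passed the filter without P33, were both higher at P33. H4C8 (chr6:26277609-26285638, minus strand) had 44.2, 45.1 and 48.2 CPM at P33, against 8.03, 6.90 and 7.51 CPM at P3. At 6.13-fold (SE of the log2 value 0.089, adjusted p = 2.82e-26) it was second only to H2BC18. H4C14 had 2.06, 2.59 and 2.51 CPM at P33, against 0.936, 0.848 and 0.442 CPM at P3 (3.11-fold, log2 1.64, SE 0.237, adjusted p = 8.98e-08). H4C15, which entered through P33, had 0.590, 0.706 and 0.868 CPM at P33, against 0.273, 0.270 and 0.0491 CPM at P3. H4C14 and H4C15 share 94.9% and 97.1% of their 100-base words with other listed genes, so which copy gave the reads is uncertain.

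**Figure D3:**
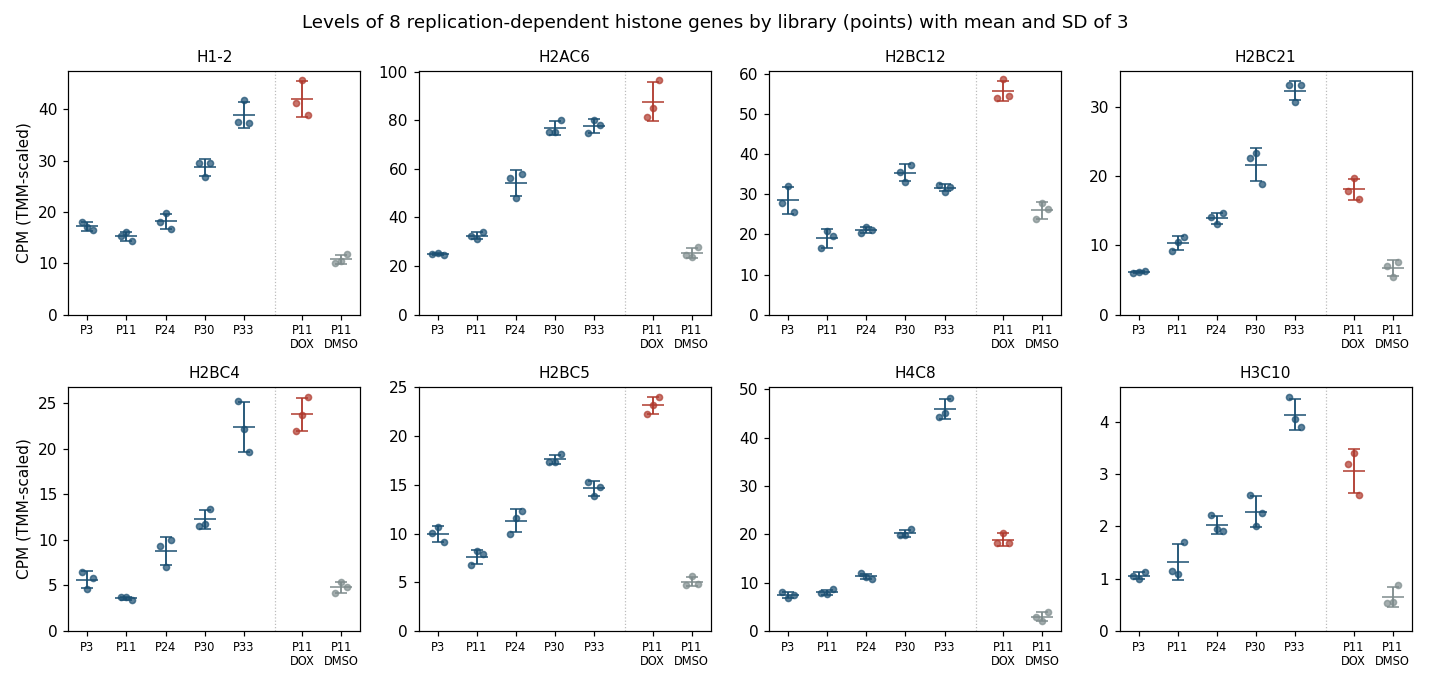
CPM in every library for H1-2, H2AC6, H2BC12, H2BC21, H2BC4, H2BC5, H4C8 and H3C10, with passages in order and DOX left of DMSO; points are libraries, dashes group means and vertical bars the SD. H4C8 climbs most between P30 and P33, H2AC6 is level between them, and H2BC12 at P33 overlaps the P3 values.

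The genes did not move at the same passage. At P11 against P3, 3 were higher (H2BC18 log2 0.70, H2BC21 0.73 and H2AC6 0.38) and 3 lower (H2BC4 log2 -0.63, H2BC5 -0.39 and H2BC12 -0.59), where 22.8% and 23.7% of all genes were. The H2BC18 call at P11 was lost under several settings, among them without P3 replicate 2, P3 replicate 3, P11 replicate 1 or P11 replicate 2. At P24 against P3, 10 were higher and 1, H2BC12, was lower (log2 -0.44), against 26.6% and 27.9% of all genes. At P30 against P3, 16 were higher and none lower (29.0% and 29.7% of all genes), a count of 0 that also held at an unadjusted p under 0.05 and with DESeq2. The median log2 change of the 23 was -0.17 at P11, 0.60 at P24 and 0.90 at P30, each against P3.

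Between neighbouring passages, 12 of 23 were higher and none lower at P24 against P11 (16.0% and 17.7% of all genes). At P30 against P24, 11 were higher and none lower (17.9% and 17.1%). Neither comparison had a gene lower at an unadjusted p under 0.05, in edgeR or in DESeq2. At P33 against P30, 10 were higher and 1 lower (23.6% and 24.8%).

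The last step separated genes of the same class. H4C8 rose by a further 1.18 on the log2 scale, H2BC18 by 1.54, H2BC15 by 1.22, H2BC4 by 0.88, H3C10 by 0.86, H2BC21 by 0.57 and H1-2 by 0.44. For H2AC6 the log2 difference was 0.02 (SE 0.0655, adjusted p = 0.904). H2BC5 was lower at P33 than at P30 (log2 -0.26, SE 0.0889, adjusted p = 0.0131), a call lost without P33 replicate 2 (log2 -0.21, adjusted p = 0.0902). With P11 in place of P3 as the start, all 23 were higher at P33 and none lower (27.7% and 29.7% of all genes; 0 lower at an unadjusted p under 0.05, and 22 higher and 0 lower with DESeq2). The 23 include H2BC12, at log2 0.73, since its mean was lowest at P11. They also include H4C15, H2BC9 and H2AC13, which entered through P33, so here too their tests carry no weight. The 20 genes that passed the filter without P33 libraries were all higher.

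Sums over each class are given without a test. All 66 genes together held 308.6 ± 2.68 CPM at P33, against 114.7 ± 4.97 CPM at P3 (SD, n = 3 each), a ratio of 2.69. The ratio was 2.27 for H1, 2.97 for H2A, 2.25 for H2B and 2.24 for H3. For H4 it was 5.59, with 50.3 CPM at P33 and 9.01 CPM at P3, nearly all of it H4C8. The H4 sum was 9.12 CPM at P11, 12.8 at P24 and 23.0 at P30, while the H2A sum was 35.0, 57.8 and 81.1 CPM at those passages and 84.6 CPM at P33.

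**Figure D4:**
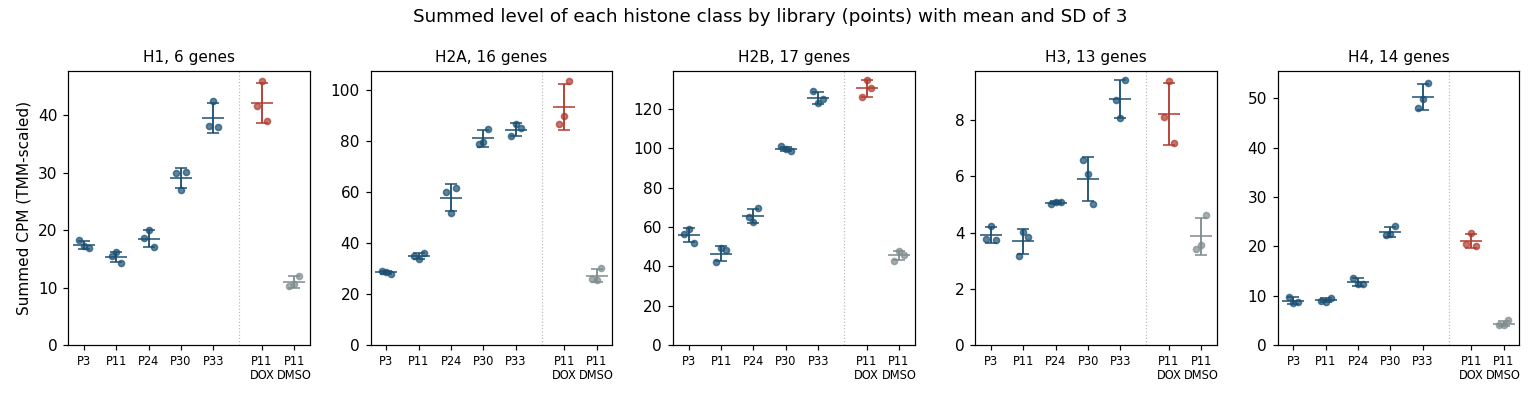
Summed CPM of the H1, H2A, H2B, H3 and H4 genes in every library, passages in order and DOX left of DMSO; points are libraries, dashes group means and vertical bars the SD. The H4 sum is at 50.3 CPM at P33 against 9.01 CPM at P3, and 21.1 CPM with DOX against 4.36 CPM with DMSO. The H2A sum is at 84.6 CPM at P33 against 28.5 CPM at P3, and 93.5 CPM with DOX against 27.3 CPM with DMSO.

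By cluster, the sum over the chromosome 1 genes was 46.6 CPM at P33, against 9.09 CPM at P3 (ratio 5.13), carried by H2BC21 and H2BC18. Cluster 2 stood at 212.2 CPM at P33, against 70.8 CPM at P3. Cluster 3, dominated by H2BC12, had 37.1 CPM at P33, against 30.7 CPM at P3 (ratio 1.21), and cluster 4 had 12.7 against 4.04 CPM (ratio 3.16). Higher calls were made for 6 of 6 tested genes in cluster 1 and 10 of 10 in cluster 2. In clusters 3 and 4 they were 2 of 3 and 4 of 4, where 34.5% of all genes tested were higher. H4C15 in cluster 1, H2BC9 in cluster 2 and H2AC13 are counted there although they entered through P33.

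H2A and H2B genes often stand head to head and share the stretch between their starts. Of the 66 genes, 22 form 11 such pairs with starts within 500 bases. Both partners were tested in 4 pairs, and both were higher at P33 in each. These were H2BC4 with H2AC6 (starts 219 bases apart), H2BC8 with H2AC8 (287), H2BC11 with H2AC11 (248) and H2BC15 with H2AC15 (170). Since 22 of the 23 tested genes were higher, against 34.5% of all genes, this says little about pairing. In other pairs nearly all reads fell on 1 side. H2BC21 had 2128 reads at P33 and 446 at P3, while H2AC20, 236 bases away, had 7 reads at P33 and 19 at P3. H2BC12 had 2077 reads at P33 and 2066 at P3, while H2AC12, 251 bases away, had 4 and 1.

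DOX was compared with DMSO to see which of these transcripts differed in drug-treated cells of the same passage. Here too the histone transcripts counted were higher. Of the 23 genes, 20 were higher and none lower, where 16.8% of all genes tested were higher and 20.6% lower. By at least 2-fold, 18 were higher (3.75% of all genes), and the median log2 fold change was 1.75, against -0.01 over all genes. In 22 of 23 every DOX library lay above every DMSO library (19.5% of all genes). None was lower at an unadjusted p under 0.05, and DESeq2 gave 19 higher and none lower. All 23 pass the filter on the passage libraries alone, and the 9 genes above the filter level in every DMSO library were all higher.

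H1-2 stood at 41.2, 45.7 and 38.8 CPM with DOX, against 10.1, 10.4 and 11.7 CPM with DMSO (3.91-fold, log2 1.97, SE 0.0830, adjusted p = 1.39e-22). H2AC6 stood at 81.2, 84.9 and 96.6 CPM with DOX, against 24.5, 23.8 and 27.7 CPM with DMSO (3.46-fold, log2 1.79, SE 0.0714, adjusted p = 2.49e-23). The groups were far apart in both. H2AC8 had 1.45, 1.31 and 2.55 CPM with DOX, against 0.270, 0.121 and 0.469 CPM with DMSO (log2 2.58, SE 0.385, adjusted p = 5.65e-07). H2AC11 had 1.86, 1.86 and 2.14 CPM with DOX, against 0.586, 0.485 and 0.939 CPM with DMSO (log2 1.54, SE 0.279, adjusted p = 1.8e-05). H2AC13 was also called, on 21 reads with DOX against 1 with DMSO, a ratio of 18.2 with an exact 95% interval of 2.92 to 752. It shares 57.7% of its 100-base words with other listed genes.

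All 10 tested H2B genes were higher with DOX (16.8% of all genes tested). H2BC12, called at P33 against P3 only under some settings, had 54.1, 58.6 and 54.4 CPM with DOX, against 23.8, 27.8 and 26.2 CPM with DMSO (2.15-fold, SE of the log2 value 0.0757, adjusted p = 8e-16). H2BC5 had 22.2, 23.2 and 24.1 CPM with DOX, against 4.78, 5.64 and 4.81 CPM with DMSO (4.57-fold, log2 2.19, SE 0.101, adjusted p = 2.47e-21). Neither gene's groups overlapped. H2BC4 had 22.0, 23.6 and 25.6 CPM with DOX, against 4.19, 5.34 and 4.81 CPM with DMSO (log2 2.32, SE 0.123, adjusted p = 4.67e-19). H2BC8 had 1.86, 2.66 and 2.09 CPM with DOX, against 0.316, 0.364 and 0.352 CPM with DMSO, 6.31-fold. H2BC21 had 17.9, 19.7 and 16.7 CPM with DOX, against 7.08, 5.52 and 7.69 CPM with DMSO (2.66-fold, log2 1.41, SE 0.104, adjusted p = 7.78e-15). H2BC18 rested on few reads, 54 with DOX against 12 with DMSO (log2 1.92, SE 0.427, adjusted p = 3.27e-04).

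H3C10 had 3.19, 3.41 and 2.60 CPM with DOX, against 0.541, 0.546 and 0.880 CPM with DMSO (4.71-fold, log2 2.24, SE 0.233, adjusted p = 1.5e-10). H3C6 had 4.11, 5.37 and 4.13 CPM with DOX, against 2.66, 2.79 and 3.29 CPM with DMSO (1.56-fold, log2 0.64, SE 0.17, adjusted p = 2.33e-03). H3C6 had the smaller change of the pair, as at P33. H4C8 had 18.1, 20.4 and 18.3 CPM with DOX, against 2.84, 2.12 and 3.93 CPM with DMSO (log2 2.67, SE 0.118, adjusted p = 7.09e-22). H4C14 had 1.13, 1.31 and 1.17 CPM with DOX, against 0.496, 0.910 and 0.704 CPM with DMSO (log2 0.80, SE 0.291, adjusted p = 0.027). The H4C14 call was lost without DOX replicate 2 (log2 0.74, adjusted p = 0.0739), DMSO replicate 1 (log2 0.56, adjusted p = 0.194) or DMSO replicate 3 (log2 0.81, adjusted p = 0.0565).

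The 3 genes not past the threshold with DOX were all in cluster 1. H2AC18 had a log2 fold change of 1.33 (adjusted p = 0.106) and was called without DMSO replicate 3 (log2 2.30, adjusted p = 0.0321). H2AC19 had a log2 fold change of 0.51 (adjusted p = 0.462). H4C15 had 12 reads with DOX against 3 with DMSO (ratio 3.46, exact 95% interval 0.935 to 19.1; adjusted p = 0.123). H2AC18 had only 18 reads with DOX against 6 with DMSO, and H2AC19 had 33 against 20. Higher calls with DOX were thus 3 of 6 in cluster 1 and 10 of 10 in cluster 2. In clusters 3 and 4 they were 3 of 3 and 4 of 4, where 16.8% of all genes tested were higher. The part of read depth in the cluster 1 count was not tested.

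In sums over all 66 genes, DOX libraries held 282.7, 302.6 and 300.7 CPM, against 86.6, 91.6 and 97.9 CPM in DMSO libraries, a ratio of means of 3.21. By class the ratio was 3.84 for H1, 3.43 for H2A, 2.86 for H2B, 2.12 for H3 and 4.85 for H4. By cluster it was 2.51, 3.85, 2.18 and 3.25 for clusters 1 to 4.

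The DOX and passage responses were then compared gene by gene, by testing the DOX effect minus the P33 effect, each taken within its own set of libraries. Of 23 genes, 4 had the larger log2 change with DOX and 3 at P33, against 25.9% and 25.4% of all genes. Both counts were below the shares of all genes. H2BC5 differed by 1.64 (SE 0.139, adjusted p = 4.1e-13), H2AC8 by 1.72 (SE 0.5, adjusted p = 3.66e-03), H2BC12 by 0.96 (SE 0.107, adjusted p = 5.89e-10) and H1-2 by 0.79 (SE 0.113, adjusted p = 1.53e-07), all larger with DOX. Larger at P33 were H2BC18 (log2 -1.60, SE 0.589, adjusted p = 0.0211), H2BC21 (log2 -0.97, SE 0.146, adjusted p = 4.25e-07) and H2BC15 (log2 -0.78, SE 0.301, adjusted p = 0.029). The H2BC18 difference was not past the threshold without DMSO replicate 2 (log2 -1.34, adjusted p = 0.13) or DMSO replicate 3 (log2 -1.55, adjusted p = 0.0635). The H2BC15 difference was not past it without P3 replicate 2, P3 replicate 3, P33 replicate 2, DOX replicate 1 or DMSO replicate 1 (adjusted p = 0.0506, 0.0921, 0.0558, 0.0696 and 0.198).

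The 43 untested genes had few reads in every group. Of the 35 with any read, 20 had more reads at P33 than at P3 and 10 had fewer, and 20 had more with DOX than with DMSO and 6 had fewer. Their summed level was 4.45 CPM at P33, against 2.45 CPM at P3, and 2.14 CPM with DOX, against 1.43 CPM with DMSO. H4C12 had 22 reads at P33 against 9 at P3 and 26 with DOX against 5 with DMSO, but every 100-base word of it is shared with other listed genes. H2AC14 went the other way, with 2 reads at P33 against 10 at P3 (ratio 0.219, exact 95% interval 0.0233 to 1.03). H2AC7 lies wholly inside another gene on its strand and had no read in the passage libraries.

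Genes that make and process histone mRNAs are given beside the same shares of all genes, 34.5% higher and 33.3% lower at P33 and 16.8% higher and 20.6% lower with DOX. Of 14 genes of 3′ end processing, 2 were higher and 8 lower at P33 (median log2 -0.32), and 4 were higher and 2 lower with DOX. SLBP, which binds the stem-loop, stood at 58.1 ± 2.99 CPM at P33, against 61.8 ± 3.78 CPM at P3 (log2 -0.09, adjusted p = 0.27). With DOX it fell to 42.0 ± 2.31 CPM, against 58.8 ± 4.54 CPM with DMSO (log2 -0.49, adjusted p = 4.99e-07). LSM11, a U7 particle subunit, had log2 changes of 0.26 at P33 (adjusted p = 0.0759) and -0.21 with DOX, neither past the threshold. Its partner LSM10 was lower at P33 (log2 -0.54) and higher with DOX (0.29). SRRT, which links the cap complex to 3′ processing, and the cap-binding subunits NCBP1 and NCBP2 were lower at P33 (log2 -0.68, -0.45 and -0.49).

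Of 11 genes of histone gene transcription, 3 were higher and 5 lower at P33, and 1 was higher and 4 lower with DOX (shares of all genes as above). NPAT, the coactivator of the clusters, had log2 changes of 0.07 at P33 and 0.01 with DOX, neither past the threshold. CASP8AP2, a second component of histone locus bodies, did not pass either (log2 -0.14 and -0.17). CCNE2, a cyclin E that with CDK2 phosphorylates NPAT, was lower at P33 (log2 -1.14) and with DOX (log2 -2.35), and CDK2 was lower in both (log2 -0.50 and -0.82). POU2F1, the octamer factor, was higher at P33 (log2 0.90, adjusted p = 2.12e-10) and had a log2 change of 0.05 with DOX.

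Of histone mRNA decay genes, 3 of 9 were higher and 4 lower at P33 (34.5% and 33.3% of all genes), and 1 of 10 was higher and 1 lower with DOX (16.8% and 20.6%). EXOSC3, an exosome subunit with no read in the passage libraries, is left out at P33. ERI1, the exonuclease that trims the stem-loop end, is counted above under 3′ end processing. It was lower at P33 (log2 -0.27) and with DOX (log2 -0.44). Of canonical cleavage and polyadenylation genes, 2 of 15 were higher and 10 lower at P33 (median log2 -0.31), and 1 of 16 was higher and 4 lower with DOX. PABPN1, a nuclear poly(A)-binding protein, likewise had no read in the passage libraries and is left out at P33. CPSF4 was higher at P33 (log2 0.50) and with DOX (log2 0.55). CSTF2, the cleavage factor subunit CstF-64, is also counted under 3′ end processing and not here, and was lower at P33 (log2 -0.58).

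Most replication-independent histone variants have mRNAs with ordinary tails, but the tails of those listed, H2AX among them, were not measured. Of 11 tested, 3 were higher and 6 lower at P33 (median log2 -0.40), where 34.5% and 33.3% of all genes were. With DOX 1 was higher and 7 lower, where 16.8% and 20.6% of all genes were. H3-3A and H3-3B, which encode H3.3, were lower at P33 (log2 -0.96 and -0.71) and with DOX (log2 -0.29 and -0.19). H2AZ2 was lower at P33 (log2 -0.73).

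Among 16 histone chaperones, 2 were higher and 11 lower at P33 (34.5% and 33.3% of all genes), and none was higher and 11 lower with DOX (16.8% and 20.6%). CHAF1A and CHAF1B, subunits of the CAF-1 complex that deposits new histones behind the replication fork, were lower at P33 (log2 -0.74 and -0.62) and with DOX (log2 -0.63 and -0.99). ASF1B, which hands H3 and H4 to CAF-1, was lower with DOX by a log2 of -3.61.

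S phase genes were lower where the histone genes were higher, except at the last passage step. Of 20 listed, none was higher and 19 were lower at P33 against P3 (median log2 -0.77), where 34.5% and 33.3% of all genes were. At P30 all 20 were lower than at P3 (median log2 -1.16; 29.7% of all genes). At P33 against P30, 15 were higher and none lower (median log2 0.32; 23.6% and 24.8% of all genes). With DOX 2 were higher and 18 lower (median log2 -1.03; 16.8% and 20.6% of all genes). MCM2, a subunit of the replicative helicase, stood at 28.9 ± 0.0913 CPM at P33, against 76.6 ± 5.82 CPM at P3. RRM2, a subunit of ribonucleotide reductase, stood at 2.88 ± 0.281 CPM with DOX, against 40.7 ± 1.05 CPM with DMSO. PCNA, the sliding clamp, and TYMS, thymidylate synthase, were lower at P33 (log2 -0.53 and -0.78) but higher with DOX (log2 0.95 and 0.86). The part of the S phase share of cells in the histone values was not tested.

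RNAs that carry no tail were looked at too, but their counts cannot measure untailed RNA in the libraries. How reads that match several places were handled is not given, so a count of 0 need not mean absence. The 22 RNAs listed had 23 entries in the count table. No read was found on 13 entries, and RN7SL1, the signal recognition particle RNA, had 7848 of the 8031 reads. RN7SL1 stood at 22.4, 5.60 and 5.88 CPM at P33, against 14.9, 21.6 and 26.1 CPM at P3 (log2 -0.84, adjusted p = 0.129). With DOX it stood at 22.2, 21.1 and 29.1 CPM, against 42.8, 27.5 and 41.0 CPM with DMSO (log2 -0.63, adjusted p = 0.271). Neither difference passed the threshold, and P33 replicate 1 stood apart from the other P33 libraries. Whether the histone transcripts counted ended in a tail was not read from the counts, which give no position within a gene.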

How the data were processed

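The table the authors deposited holds raw, whole-number read counts per gene, not normalized, with gene coordinates and type. Per the labels' protocols, TRIzol RNA was poly(A)-selected, primed with random hexamers, ligated to an adaptor as single-stranded cDNA and amplified by 18 PCR cycles. The submitters' processing notes name HISAT2 2.1.0, featureCounts 2.0.1 (Subread), SAMtools 1.11, cutadapt 3.3, FastQC 0.11.9 and DESeq2 1.34.0, and the builds hg38 and GRCh38.p13. The strand setting and the handling of reads that match several places are not given by any source used here.

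Counts were analysed in R 4.3.3 with edgeR 4.0.16 (filterByExpr at a minimum count of 10, TMM scaling, glmQLFit and glmQLFTest) and limma 3.58.1, with 1 term per group, 21 libraries and 14 residual degrees of freedom. The filter left out 44723 genes. Library totals were 12.946 to 27.194 M, and the biological coefficient of variation was 5.48%. The procedure was tested on simulated data with known changes. DESeq2 1.42.0, RLE scaling, other filters, a replicate block, fits within each set of libraries, P11 as the start, plain CPM for sums and leaving out each library were the alternatives.

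Replicate numbers did not pair libraries: deviations of equal-numbered libraries correlated at -0.077 to 0.041. No libraries of a group agreed within sampling noise. Read ratios carry exact Clopper-Pearson 95% intervals, which, like floors of 3 counts, describe counting error alone, because PCR duplicates of a molecule cannot be recognised without molecular identifiers. Genes named are the 3 of each class with the highest mean CPM, the 5 largest rises past the threshold at P33 against P3 and with DOX, and, from each list of other genes, up to 6 with the smallest p plus SLBP, NPAT, CASP8AP2 and LSM11. Others named were chosen after their values were seen. Members and gene lists were chosen with earlier results of these data known. Stem-loops come from GENCODE 29 transcripts and promoters from RefSeq, GRCh38.p14. Words shared between genes were counted on 100-base windows of GENCODE 29 transcripts.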

Additional observations from a re-analysis of the deposited data

Results flagged for a closer look

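In 7 of the 23 genes the log2 change with DOX against DMSO differed from that at P33 against P3. The difference itself was tested (edgeR quasi-likelihood test, Benjamini-Hochberg adjusted over all genes tested). Of all genes tested, 25.9% had the larger log2 change with DOX and 25.4% at P33. In all, 8630 of the 16821 genes tested differed, a larger share than among the 23. Passage libraries had no reads on genes inside another of the same strand, and the part of this in the difference was not tested. The change was larger with DOX in H2AC8 by 1.72 (adjusted p = 3.66e-03), in H2BC5 by 1.64 (adjusted p = 4.1e-13), in H2BC12 by 0.96 (adjusted p = 5.89e-10) and in H1-2 by 0.79 (adjusted p = 1.53e-07). It was larger at P33 in H2BC18, at -1.60 (adjusted p = 0.0211), in H2BC21, at -0.97 (adjusted p = 4.25e-07), and in H2BC15, at -0.78 (adjusted p = 0.029). The H2BC18 and H2BC15 differences were not past the threshold when certain single libraries were left out, as given above. In each gene every DOX library lay above every DMSO library (19.5% of all genes). In all but H2BC12 every P33 library lay above every P3 library (36.0% of all genes). H2BC18 and H2BC5 each overlap other genes on both strands, and the part of that overlap in the difference was not tested.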

How the results depend on the processing

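For single genes, 1348 of 1426 values under alternatives kept their direction and side of the threshold, 74 lost the call, 4 gained one and none changed sign. Counts moved by over 1.5 times mainly under a stricter filter of 10 CPM in 3 libraries, which left 7 of the 23 genes. It gave 5 higher at P24 against P3, 7 at P30 and 7 at P33 against P3, 6 at P24 against P11, 7 at P30 against P24, 4 higher and 0 lower at P33 against P30, 7 higher with DOX, and 1 gene with the larger change at P33. With no filter, 5 genes were lower at P11, 2 at P24 and 1 at P30, each against P3, and 26 were higher at P33. Without members overlapping a gene on the same strand, 0 were lower at P33 against P30. Leaving out 1 library at a time, the lower count at P33 against P30 ran from 0 (without P33 replicate 2) to 2 (without P30 replicate 2). Higher counts then ran from 21 to 22 at P33 against P3, from 8 to 11 at P24 against P11 and from 20 to 21 with DOX, with up to 1 further gene past the filter. Of the 23 genes alone, 21 were higher at P33 in each case and 19 to 20 with DOX. With the replicate number as a block, 21 genes were higher at P33 against P3 and 20 with DOX, and H2AC18 at P33 was the 1 call lost (adjusted p = 0.0513). Only 7 of 21 libraries were closest to one of their own number. DESeq2 called 21 genes higher at P33 and 19 with DOX, and did not call H4C14 with DOX (adjusted p = 0.0538) or H2AC18 at P33 (adjusted p = 0.0911). Scaling moved the median of all genes by less than 0.1 on the log2 scale. Sums at P33 moved more. With plain CPM the P33 to P3 ratio of the 66 genes was 3.08 in place of 2.69, and that of H4 was 6.40 in place of 5.59. The DOX to DMSO ratio of the 66 was 3.23 in place of 3.21. Depth limits the 43 untested genes, and sequence shared with other genes limits some of them too, among them H3C14, H3C4 and H2AC17. Near-identical copies limit which gene a read belongs to.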

Other observations

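Histone genes outside the rule by which the 66 were chosen moved as well. H2BC20P and H2BC19P are transcribed H2B pseudogenes that overlap on opposite strands within cluster 1, at 149844498 to 149850937 (minus strand) and 149842875 to 149846486 (plus strand) on chromosome 1, so reads of one cannot be told apart from those of the other if strand was not used. H2BC20P averaged 21.7 ± 1.87 CPM at P33, against 3.44 ± 0.28 CPM at P3 (SD, n = 3 each; log2 2.66, edgeR adjusted p = 1.73e-23). With DOX it stood at 19.1 to 20.4 CPM, against 9.52 to 10.3 CPM with DMSO, a log2 change of 0.99. H2BC19P rose by 2.46 at P33 and by 0.68 with DOX on the log2 scale.

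H4-16, a lone H4 gene on chromosome 12, was higher at P33 (log2 1.43) and was not past the threshold with DOX (log2 0.63, adjusted p = 0.052). H3-2, an H3 gene on chromosome 1, was not called in either comparison (log2 -0.14 at P33 and 0.12 with DOX).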
